A study of Mus musculus with 2 samples.

Results

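The matrix metalloproteinases (Mmp), the ADAMTS proteinases (Adamts) and the tissue inhibitors of metalloproteinases (Timp) were followed through the cell types of mouse palatal gingiva. The genes were taken by name, as every symbol made of Mmp, Timp or Adamts followed directly by a digit, with the Adamtsl genes left out. This gave 45 of the 32285 genes in the count tables: 22 Mmp, 4 Timp and 19 Adamts genes. At least 1 UMI (unique molecular identifier, a tag that marks a captured mRNA molecule) was found for 44 of them, Mmp20 had none, and 32 had at least 20 UMIs. The mice were female C57BL/6 animals of 8 to 12 weeks, C57Bl6/J in the labelled protocol and wild type in the study's methods. CpG ODN, a DNA oligonucleotide recognised by the receptor TLR9, or lipopolysaccharide (LPS) of P. gingivalis, a TLR2/4 ligand per the labels, was placed on the palate in 3 µl at 1 µg/ml and kept for 1 h under an oral appliance. The gingiva was taken 4 days later and the cells of 4 mice were pooled into 1 library per ligand. With 1 library each, the ligand and the library cannot be told apart, the ligands could not be compared by a test, and no untreated library was analysed here.

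The CpG ODN library held 6219 barcodes and 72173148 UMIs, and the LPS library 2016 barcodes and 38656738 UMIs. A minimum of 800 detected genes left 4888 and 1277 cells with median UMI counts of 11078 and 22680. The libraries shared 5 barcodes, 1 of them among kept cells. Cells were clustered without the 45 genes and named from marker lists, with "-like" added to a name that at least 4 markers supported. Epithelial-like cells made up 3727 and 976 cells, fibroblast-like 238 and 54, gland or simple epithelial-like 102 and 69, mural-like 76 and 22, endothelial-like 49 and 24, myeloid-like 33 and 13, Schwann-like 24 and 11, and B cell-like 283 and 69. Levels are UMIs per 1000000 UMIs of the class (CPM), with the CpG ODN library first throughout. The protocol counts 1 tag per captured 3′ end, so CPM is not divided by gene length. The 95% intervals are exact and cover counting error only, not the spread between mice.

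Metalloproteinases are zinc-dependent enzymes that cut collagens, proteoglycans and other proteins of the extracellular matrix. Most are made as inactive precursors, and the Timp proteins block them by binding the active site. The ADAMTS enzymes are secreted relatives that cut the proteoglycans versican and aggrecan or remove the N-terminal propeptide of procollagens. In gingiva these enzymes are known for the remodelling of collagen and for its loss in periodontitis.

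Several of the inducible Mmp genes lie side by side on mouse chromosome 9, and their promoters are shown because the cells that held these mRNAs differed widely. In GRCm38 the run goes from Mmp13 (7272514 to 7283331) through Mmp12 (7344381 to 7369499), Mmp1b, Mmp3 (7445822 to 7455975), Mmp10 (7502352 to 7510240), Mmp8 (7558456 to 7568485), Mmp27 and Mmp20 to Mmp7 (7692090 to 7699585). Mmp1b lies on the opposite strand and overlaps the 3′ end of Mmp12, so the counts of these neighbours rest on the strand of the reads. Promoter windows from RefSeq (GRCm38.p6) matched 31 of the 45 genes with 34 windows. The heptamer TGACTCA and its reverse complement TGAGTCA, the core of the site that AP-1 factors bind, were searched on both strands of the 250 bases before each start. A match was found in 6 of the 34 windows (17.6%) and in 1466 of 32851 windows of the same length over all genes (4.46%). The 6 genes were Mmp3, Mmp7, Mmp10, Mmp12, Mmp13 and Mmp1b, all of the chromosome 9 run. No match in these windows was found for 25 genes, among them Mmp14, Mmp15, Adamts1 and all 4 Timp genes, and Mmp2, Mmp9, Adamts4 and Adamts5 were among the 14 genes with no window. The 120 bases before the start are given 5′ to 3′ on the plus strand, with the matching heptamer in capitals, for Mmp10 (chr9:7502222-7502341), Mmp12 (chr9:7347254-7347373), Mmp3 (chr9:7445702-7445821) and Mmp13 (chr9:7272394-7272513). The Mmp12 window belongs to the downstream of its 2 annotated starts, and the window of the upstream start had no match. Mmp7 also had a window without a match.
Mmp10: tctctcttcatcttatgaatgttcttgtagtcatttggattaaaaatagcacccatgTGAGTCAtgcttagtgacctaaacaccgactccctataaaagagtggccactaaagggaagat
Mmp12: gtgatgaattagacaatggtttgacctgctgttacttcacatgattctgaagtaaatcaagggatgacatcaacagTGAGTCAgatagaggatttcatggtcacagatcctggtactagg
Mmp3: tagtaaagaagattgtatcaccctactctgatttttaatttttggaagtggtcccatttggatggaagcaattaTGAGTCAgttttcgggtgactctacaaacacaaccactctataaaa
Mmp13: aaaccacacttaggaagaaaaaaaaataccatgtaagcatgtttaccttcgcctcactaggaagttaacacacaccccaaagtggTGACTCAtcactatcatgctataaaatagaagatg
The heptamer began 35 to 63 bases before the start in all 4. The presence of these letters describes the windows and says nothing on the use of a site in these cells.

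The first question was which gingival cells carried these mRNAs. They lay in several cell types, and fibroblast-like cells led the largest number of genes. Of the 32 genes with at least 20 UMIs, 12 had their highest CPM in fibroblast-like cells, 7 in mural-like, 4 in endothelial-like, 4 in myeloid-like, 3 in Schwann-like, 1 in B cell-like and 1 in epithelial-like cells, taking the mean of the libraries. The leading class was the same in each library taken alone for 21 of the 32 genes, and for 10 of the 12 led by fibroblast-like cells. The fibroblast-like set was Mmp2, Mmp3, Mmp11, Mmp14, Mmp16, Mmp19, Mmp23, Timp1, Timp2, Adamts2, Adamts10 and Adamts12. The mural-like set was Mmp17, Timp4, Adamts1, Adamts5, Adamts8, Adamts14 and Adamts15, the endothelial-like set Timp3, Adamts4, Adamts9 and Adamts18, and the myeloid-like set Mmp9, Mmp12, Mmp13 and Mmp25. Mmp10 was the gene led by epithelial-like cells, and all of its 61 epithelial UMIs came from 1 cell. The myeloid-like place of Mmp12 came from the CpG ODN library, where it had 10 UMIs over all cells. In the LPS library epithelial-like cells held 100% of the Mmp12 UMIs. The Schwann-like place of Mmp28 and Adamts17 and the endothelial-like place of Adamts18 rested on 1 UMI each, and with classes of fewer than 5 UMIs of a gene left out, epithelial-like cells led 3 genes and fibroblast-like cells again 12. The 13 genes under 20 UMIs were Mmp1b, Mmp7, Mmp8, Mmp20, Mmp21, Mmp24, Mmp27, Adamts3, Adamts7, Adamts13, Adamts16, Adamts19 and Adamts20, with 0 to 18 UMIs over both libraries, and a low count here does not show that a gene was absent.

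**Figure D1:**
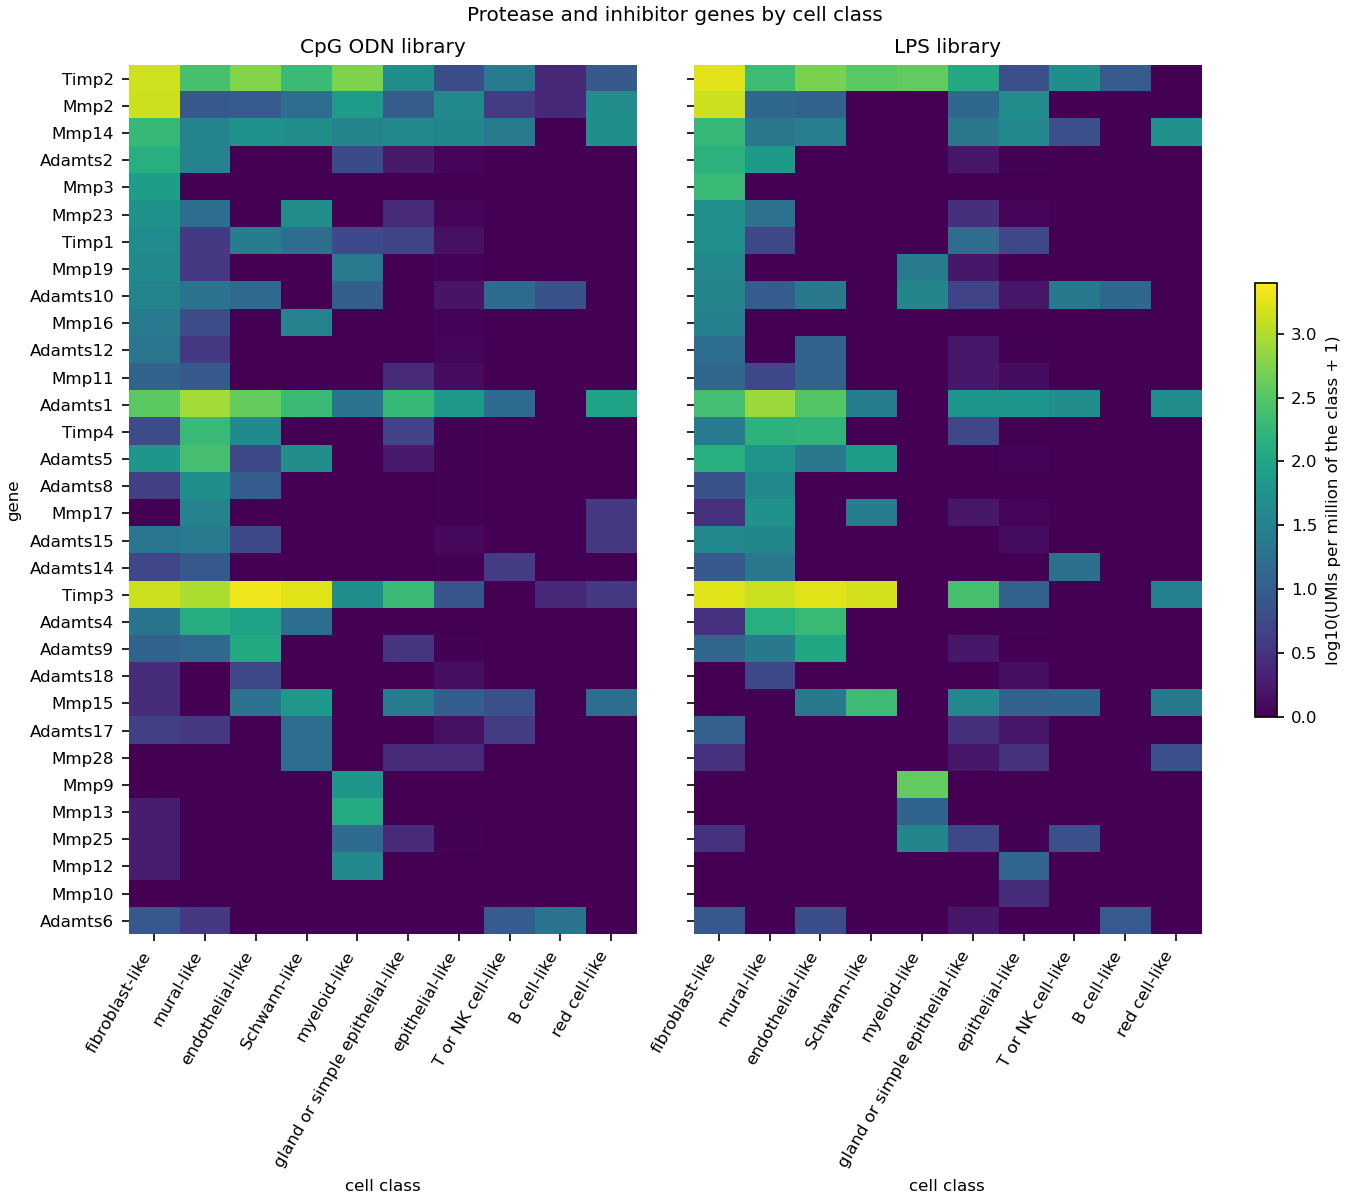
Level of each of the 32 genes with at least 20 UMIs (rows) in each cell class (columns) of the CpG ODN and LPS libraries, as colour on the scale log10(CPM + 1). Fibroblast-like cells are bright for Mmp2, Timp2 and Timp3, Mmp3 is seen almost only in fibroblast-like cells, and Timp3 is bright in the mural-like, endothelial-like and Schwann-like cells too.

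Among the gelatinases, which cut denatured collagen and type IV collagen, Mmp2 had the most UMIs of the Mmp genes. Fibroblast-like cells held 1604 Mmp2 UMIs after CpG ODN, 1381 CPM (95% interval 1314 to 1450.2), and 691 after LPS, 1388 CPM (95% interval 1286 to 1495). Nearly every fibroblast-like cell carried it: 93.7% and 92.6% had at least 1 Mmp2 UMI, and 83.0% and 74.4% after each cell was thinned to 1500 UMIs. B cell-like cells, which should lack the gene, held 1 Mmp2 UMI and 0. Median depth was 4090 and 8770 UMIs in fibroblast-like cells and 2149 and 3157 in B cell-like cells. Mmp9, the gelatinase stored in neutrophil granules, was highest in myeloid-like cells at 62.8 and 381 CPM, from 13 and 33 UMIs. Within them a sub-cluster of 3 and 8 cells with neutrophil markers held 9 and 26 of these UMIs, 909 and 699 CPM within the sub-cluster.

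The collagenases, which open the intact collagen triple helix, were scarce. Mmp8, the neutrophil collagenase, was counted 13 and 5 times in myeloid-like cells, and 12 of the 13 UMIs were in 1 cell. Mmp13, a collagenase of connective tissue and bone, had 25 UMIs and 1 in the same class, of which 18 were in 1 cell of the CpG ODN library. Its UMIs lay in the sub-cluster with dendritic or Langerhans cell markers (6 UMIs) and in an unnamed one (19 and 1). The unnamed sub-cluster carried 4 dendritic or Langerhans cell markers, H2-Ab1, H2-Eb1, Flt3 and Itgax. Its leading genes included Il1a, Ccl4, Cxcl10 and Mmp13 as well as Col3a1 and Serpinf1. Its CpG ODN cells also held 12 Mmp2 UMIs, 11 of them in 1 cell. They held 4 UMIs of Col14a1 and 4 of Ctsk, for each gene in 1 cell. The part of fibroblast RNA in these Mmp13 counts was not tested. The related gene Mmp1a was not analysed here.

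The stromelysins cut proteoglycans and fibronectin and activate other precursors. Mmp3 was almost entirely a fibroblast-like mRNA, with 93 of its 96 and 99 of its 99 UMIs in that class, or 80.1 and 199 CPM. In contrast to Mmp2 it was unevenly spread: 25 of 238 and 14 of 54 fibroblast-like cells held any, and 1 LPS cell held 41.4% of the LPS UMIs. Mmp11, a stromelysin of stroma, reached 11.2 CPM in fibroblast-like cells of the CpG ODN library. Epithelial-like cells held 47.2% and 50% of the Mmp11 UMIs. Mmp7, or matrilysin, had 1 UMI in all.

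Of the membrane-type enzymes, Mmp14, which cleaves collagen at the cell surface and activates the Mmp2 precursor, was present in stroma and epithelium. It stood at 189 and 181 CPM in fibroblast-like cells and at 35.1 and 39.2 CPM in epithelial-like cells. Mmp15, another membrane-anchored enzyme, stood at 63.2 and 211 CPM in Schwann-like cells, from 4 and 8 UMIs, and at 25.1 and 36.9 CPM in gland or simple epithelial-like cells. Epithelial-like cells had Mmp15 at 9.36 and 9.88 CPM and held 92.0% and 81.5% of its UMIs. Mmp17, which is held to the membrane by a lipid anchor, was highest in mural-like cells at 32.2 and 53.0 CPM. Among the remaining enzymes, Mmp28, also called epilysin and known from keratinocytes, was low in epithelial-like cells (1.63 and 2.03 CPM), yet that class held 97.2% and 95.8% of its UMIs. The fibroblast-like cells also carried Mmp23 at 55.1 and 52.2, Mmp19 at 40.5 and 36.2 and Mmp16 at 23.2 and 30.1 CPM.

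The inhibitors were more abundant than the Mmp genes in the fibroblast-like, mural-like, endothelial-like and Schwann-like cells. Timp2, a secreted inhibitor that also takes part in the activation of the Mmp2 precursor, stood at 1427 CPM (95% interval 1359 to 1497) and 1776 CPM (95% interval 1661 to 1897) in fibroblast-like cells. Timp3, the inhibitor that binds to the matrix and also blocks ADAMTS enzymes, was the leading inhibitor of the vessels. It reached 2135 and 1716 CPM in endothelial-like, 962 and 1334 in mural-like, 1393 and 1715 in fibroblast-like and 1689.7 and 1449 in Schwann-like cells. Timp1, the inducible inhibitor, was far lower, at 43.9 and 50.2 CPM in fibroblast-like cells. Timp4, an inhibitor known from heart and vessels, stood at 193 and 159 CPM in mural-like cells and at 40.0 and 166 CPM in endothelial-like cells.

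Set against the summed Mmp genes, the summed Timp genes gave 1.61 and 1.87 UMIs per Mmp UMI in fibroblast-like cells. The ratio was 13.5 and 15.5 in mural-like, 34.8 and 33.3 in endothelial-like, 8.64 and 7.56 in Schwann-like and 3.08 and 4.87 in gland or simple epithelial-like cells. Epithelial-like cells were the reverse case, with 0.152 and 0.184 Timp UMIs per Mmp UMI. In the myeloid-like cells the ratio lay on either side of 1, at 1.42 and 0.750. These are sums of mRNA tags, and protein amounts and enzyme activity were not measured.

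The proteoglycan-cutting ADAMTS genes lay in vessels, fibroblasts and, for Adamts1, the epithelium. Adamts1, a versican- and aggrecan-cutting enzyme, stood at 842 and 769 CPM in mural-like, 395 and 309.9 in endothelial-like and 348 and 239 in fibroblast-like cells. In the LPS library 1 cell held 43.7% of the mural-like and 1 cell 48.2% of the endothelial-like Adamts1 UMIs. Adamts1 was lower in epithelial-like cells, at 66.5 and 60.8 CPM, but these numerous cells held 79.2% and 81.7% of its UMIs. Adamts5, an aggrecanase, was led by mural-like cells after CpG ODN (247 and 57.4 CPM) and by fibroblast-like cells after LPS (62.0 and 137 CPM). Adamts15, of the same group, was at similar levels in these classes. It stood at 24.1 and 35.3 CPM in mural-like and at 20.7 and 38.2 CPM in fibroblast-like cells. The intervals of both classes overlapped in each library. Adamts9, a versican-cutting enzyme, was held mostly by endothelial-like cells at 115 and 105 CPM. Adamts4, an aggrecanase, stood at 129 and 133 CPM in mural-like and 88.8 and 194 in endothelial-like cells, so that its leading class was not the same in the libraries. Adamts8, a little-studied proteoglycanase, was found in mural-like cells at 48.3 and 39.8 CPM. The procollagen N-proteinase Adamts2 was instead a fibroblast-like gene at 134 and 151 CPM, the class that also holds the procollagen mRNAs. Adamts10, an enzyme linked to fibrillin, and Adamts12 were lower there, at 32.7 and 34.1 and at 20.7 and 16.1 CPM. Adamts6, a relative of Adamts10, had 13 and 2 UMIs in B cell-like cells.

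Within the endothelial-like cells Adamts4 and Timp4 were each concentrated in 1 sub-cluster. The sub-cluster led by Csf3, Selp, Sele and Il6, genes of activated vessels, with 13 and 5 cells, held 18 of the 20 and 31 of the 35 Adamts4 UMIs of the class. A sub-cluster led by the lymphatic genes Lyve1, Mmrn1 and Ccl21a, with 7 and 4 cells of a median 1.73 times the depth of their class, held 230 of 481 and 78 of 310 Timp3 UMIs. Its Timp3 level was 3501 and 2272 CPM, against 2135 and 1716 in the class, and its Timp2 level 1218 and 1223 CPM, against 582 and 515. Another sub-cluster, of 3 and 5 cells, was led by the pericyte genes Rgs5 and Kcnj8. It held 7 of the 9 and 27 of the 30 Timp4 UMIs of the class, and the summed mural markers stood at 550 and 3360 CPM in endothelial-like cells. The part of these cells in the Timp4 values of the class was not tested.

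Although its level per cell was low, the epithelium held most of the Mmp2 mRNA that was counted. Epithelial-like cells contributed 2571 and 1523 Mmp2 UMIs, which was 60.8% and 68.0% of all Mmp2 UMIs in the libraries, against 37.9% and 30.9% for fibroblast-like cells. They are also 76.2% and 76.4% of the kept cells, and the level in them was 40.3 CPM (95% interval 38.8 to 41.9) and 44.9 CPM (95% interval 42.7 to 47.2). At least 1 Mmp2 UMI was found in 36.3% and 50.6% of epithelial-like cells, with median depths of 13211 and 27217 UMIs, and in 4.88% and 5.28% after thinning to 1500 UMIs. In B cell-like cells the thinned shares were 0.209% and 0. Markers of fibroblasts were counted in the same cells. Col1a1, a main collagen mRNA of fibroblasts, had 72 and 11 UMIs in epithelial-like cells, where Mmp2 stood at 3571 and 13846 UMIs per 100 Col1a1 UMIs, against 20.9 and 27.3 in fibroblast-like cells. Dcn, the decorin gene and also a fibroblast marker, had 9297 and 6762 UMIs in epithelial-like cells. Of these, 58 and 22 were in the Krt76-led cluster described next, beside 381 and 234 of Mmp2. Among the epithelial-like clusters, Dcn was a leading gene of the larger basal-like and of the H19-led one, also described below. The part of fibroblast RNA in the epithelial Mmp2 counts was not tested.

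Within the epithelium Mmp14 was higher in the basal-like clusters than in the upper-like ones, and Mmp2 was higher in the Krt76-led cluster than in the basal-like ones. The larger basal-like cluster, of 646 and 136 cells, had Mmp14 at 80.4 and 105 CPM and Mmp2 at 11.1 and 8.00 CPM. The smaller one, of 468 and 121 cells, had Mmp14 at 53.1 and 69.9 CPM and Mmp2 at 12.0 and 22.7 CPM. The cluster led by Krt76, a keratin of suprabasal palate and gingiva, of 235 and 78 cells, had Mmp14 at 18.2 and 23.9 CPM and Mmp2 at 58.3 and 60.8 CPM. In the larger upper-like cluster, of 225 and 67 cells, Mmp14 was down to 4.30 and 3.71 CPM, while Mmp2 stood at 46.5 and 48.0 CPM. The intervals of the larger basal-like and the larger upper-like cluster did not overlap for Mmp14 in either library (73.3 to 88.1 against 2.98 to 6.01, and 91.9 to 119 against 2.08 to 6.12). The same held for Mmp2 in this pair (8.55 to 14.2 against 41.8 to 51.5, and 4.74 to 12.6 against 41.5 to 55.3). The highest Mmp2 level of the epithelium was in the cluster led by Krt4 and Krt13, keratins of the non-keratinised lining, at 88.6 and 86.2 CPM in 102 and 72 cells. The other upper-like cluster, of 92 and 33 cells, had Mmp14 at 3.06 and 0 CPM and Mmp2 at 35.2 and 15.1 CPM. Its Mmp2 in the LPS library (95% interval 10.9 to 20.5) was not above that of the smaller basal-like cluster (95% interval 17.3 to 29.2).

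Adamts1 followed another division of the epithelium. It was high in the smaller basal-like cluster, at 164 and 120.1 CPM, and in the cluster led by H19 and Ccnd2, at 111 and 164 CPM. The cluster led by Socs3, Icam1 and Atf3, genes of the early response to cytokines and stress, had 154 and 113 CPM. Adamts1 was itself among the leading genes of the Socs3-led cluster, although it took no part in the clustering. In the cluster led by Lgi2 and Selenbp1 it was 43.2 and 37.7 CPM. The cluster led by Ccl20, C2cd4b and Socs3 had 69.8 and 62.9 CPM, and the Krt76-led cluster 8.56 and 8.58 CPM. Timp3 was low in epithelium and was higher at its base: 20.1 and 34.4 CPM in the smaller basal-like cluster against 1.39 and 0 in the larger upper-like one. In a cluster led by the proliferation genes Pclaf and Mki67 it stood at 8.53 and 82.0 CPM. Timp2 reached 15.9 and 20.3 CPM in the smaller upper-like cluster, above its level of 5.63 and 5.66 in the whole epithelium. The tissue was digested with collagenase II and trypsin at 37 °C, and the part of this step in Adamts1, Socs3 or Atf3 was not tested.

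**Figure D2:**
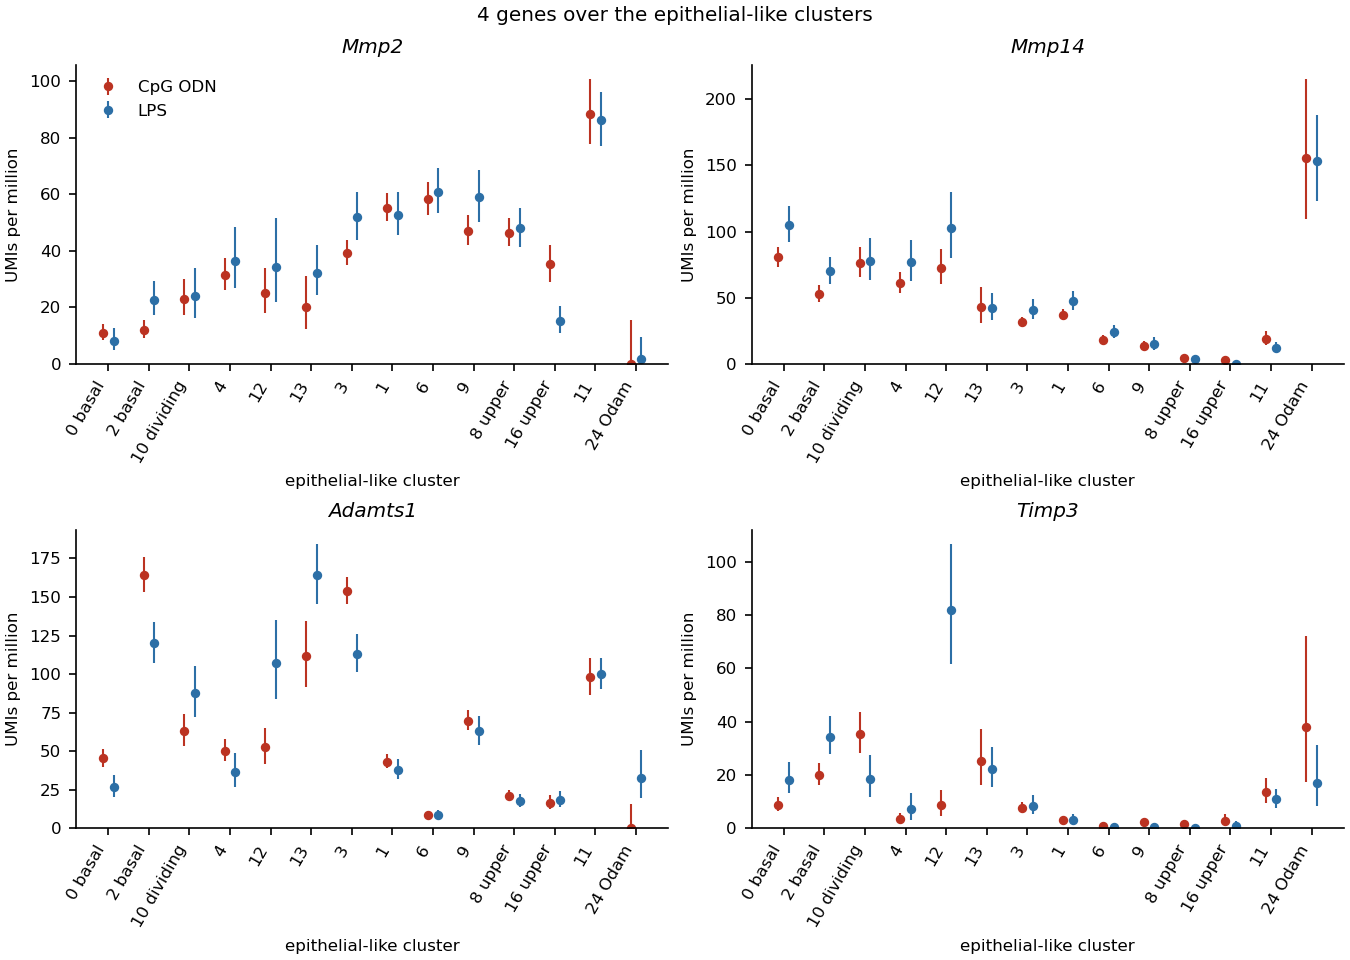
Mmp2, Mmp14, Adamts1 and Timp3 (vertical axes, CPM) in the numbered epithelial-like clusters of the CpG ODN and LPS libraries, as points with exact 95% counting intervals; cluster 6 is the Krt76-led, 3 the Socs3-led, 1 the Lgi2-led, 9 the Ccl20-led, 11 the Krt4-led and 13 the H19-led one. Mmp14 is lower and Mmp2 higher in cluster 6 than in both basal-like clusters, and Mmp14 is highest and Mmp2 nearly at 0 in the Odam-led cluster 24.

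A small epithelial cluster was led by Odam, a protein of the junctional epithelium that attaches gingiva to the tooth. It had 17 cells in each library, out of 3727 and 976 epithelial-like cells, and so a larger share in the LPS library. It was the main place of Timp1 in the epithelium after LPS, and it held 12 of the 26 Timp1 UMIs after CpG ODN and 140 of the 150 after LPS. Its Timp1 level was 50.6 CPM (95% interval 26.1 to 88.3) and 238 CPM (95% interval 200.4 to 281). Of the 140 LPS UMIs, 133 were in 4 cells with 48, 34, 26 and 25 Timp1 UMIs, each with over 700 Odam UMIs. Cells with at least 100 Odam UMIs numbered 4 and 9, and in these Timp1 stood at 106 and 350 CPM. The median depth of the cluster was 10535 and 31607 UMIs per cell. The cluster was also high for Mmp14, at 156 and 153 CPM, and nearly without Mmp2, at 0 and 1.70 CPM.

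The Odam-led cluster of the LPS library held 1 barcode with most of the Mmp12 and all of the epithelial Mmp10 of that library. The leading genes of this cluster also include S100a8, S100a9, Cxcl5 and Ppbp, genes of inflamed epithelium and of neutrophils. Mmp12, known as macrophage elastase, had 392 UMIs and Mmp10, a stromelysin of migrating keratinocytes, 61 UMIs in this barcode, out of 24156 UMIs. Whether this barcode held 1 cell or a doublet could not be settled, and the Mmp10 call and nearly all of the Mmp12 call in the epithelium rested on it. It had 359 Odam, 53 Krt14 and 18 Epcam UMIs, and 0 for Timp1 and for the epithelial marker Krt5. All other cells of the cluster had Krt5 UMIs. Another LPS cell of the cluster had 10 Mmp12 UMIs. Over the whole cluster the macrophage genes Lyz2 and C1qa had 0 and 0, and 0 and 1 UMIs, Cd68 had 2 and 1, and Tyrobp, Ptprc, Csf1r and Fcer1g had 0 in both libraries.

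**Figure D3:**
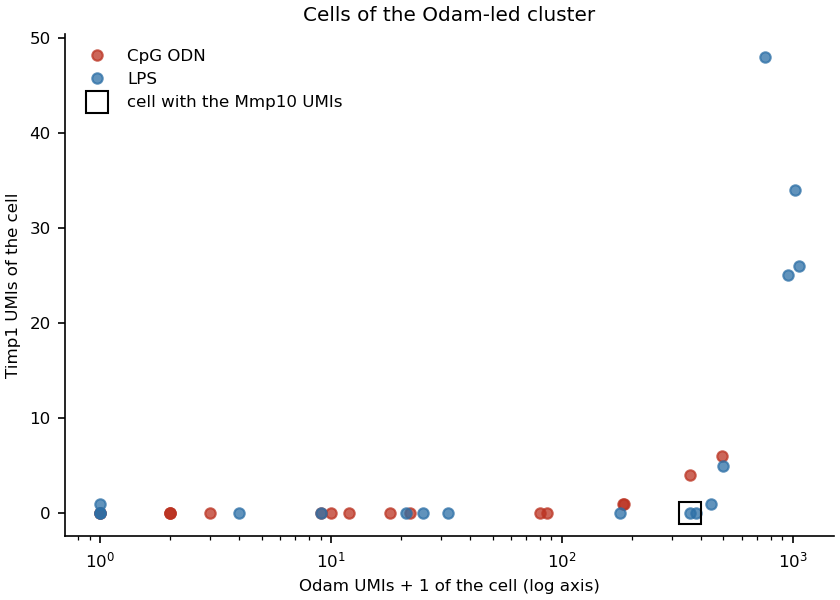
Timp1 UMIs (vertical axis) against Odam UMIs plus 1 (horizontal log axis) of each cell of the Odam-led cluster, 17 cells per library, coloured by library. The 4 cells with 25 to 48 Timp1 UMIs are LPS cells at the high end of Odam, and the square marks the LPS cell with 61 Mmp10 and 392 Mmp12 UMIs, which has 0 Timp1 UMIs.

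Fibroblast-like cells fell into sub-clusters with different members in front. The sub-cluster led by Tnn (tenascin-W), with 74 and 12 cells, was highest for Timp3 at 2264 CPM (95% interval 2103 to 2433) and 5268 CPM (95% interval 4823 to 5744). The sub-cluster led by Aspn (asporin, a collagen-binding proteoglycan), with 67 and 13 cells, had the most Mmp14, 258 and 357 CPM, with intervals that overlapped those of the Tnn-led cells. The sub-cluster led by the cytokine genes Cxcl1, Ccl7 and Il6, with 65 and 11 cells, was highest for several members. Its Timp2 stood at 2283 and 3492, Adamts1 at 634 and 418, and Timp1 at 92.6 and 95.8 CPM. The sub-cluster led by Tagln and Acta2, genes of contractile cells, with 22 and 14 cells, held Mmp3 at 344 CPM (95% interval 223 to 509) and 549 CPM (95% interval 425 to 697), from 25 and 67 UMIs. Of these LPS UMIs, 41 came from 1 cell. A last sub-cluster of 10 and 4 cells was led by keratins and had Mmp2 at 286 and 378 CPM, below the 1047 to 1769 CPM of the other sub-clusters of the CpG ODN library. Mmp2 was present in all of them, whereas Mmp3 and Timp3 were concentrated in some.

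**Figure D4:**
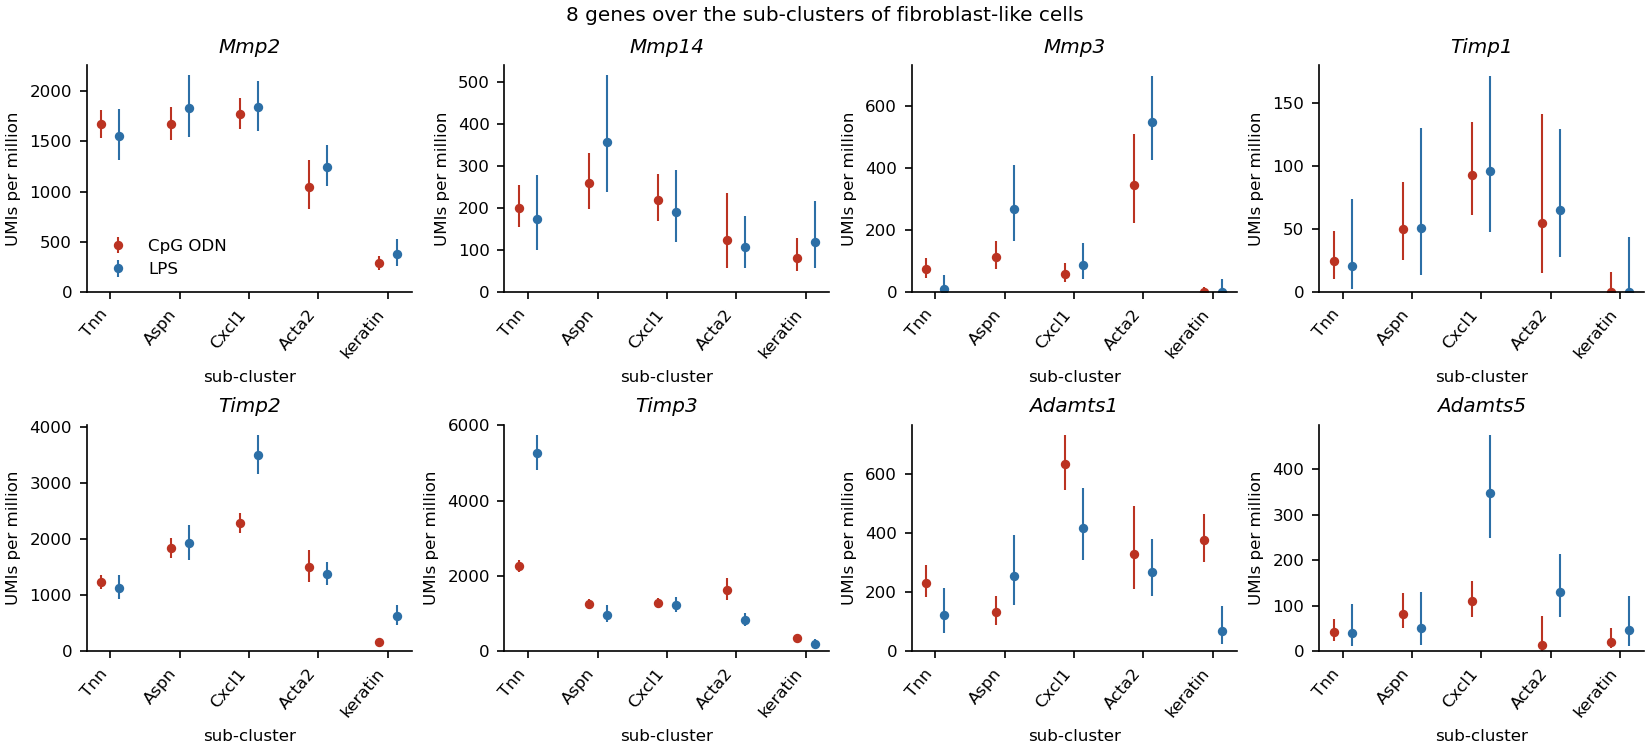
Level of 8 members (vertical axes, CPM) in the sub-clusters of fibroblast-like cells, named by a leading gene, for the CpG ODN and LPS libraries, as points with exact 95% counting intervals. Timp3 is highest in the Tnn-led cells (2264 and 5268 CPM), Timp2 in the Cxcl1-led (2283 and 3492) and Mmp3 in the Acta2-led (344 and 549).

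The comparison of the ligands asks whether the mRNAs of matrix breakdown stood at other levels after a TLR9 than after a TLR2/4 ligand. In fibroblast-like cells most members did not differ by as much as 2-fold between the libraries. Of 16 members with at least 20 UMIs, 1 was at least 2-fold higher after CpG ODN, where 5.36% of all genes were, and 2 were at least 2-fold lower, where 3.44% of all genes were. The median log2 ratio was -0.11 for the members and 0.00 for all genes. The interval of the ratio lay above 1 for 2 members, below 1 for 4 and held 1 for 10, where 5.93% of all genes lay above 1 and 6.53% below.

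Mmp2 had a CpG ODN to LPS ratio of 0.995 (95% interval 0.909 to 1.09), so a difference of 2-fold lay far outside the interval. The intervals of Mmp14 at 1.04 (95% interval 0.812 to 1.35) and Timp1 at 0.874 (95% interval 0.532 to 1.47) also held 1 and were wider. Both abundant inhibitors were lower after CpG ODN, with a ratio of 0.803 (95% interval 0.740 to 0.873) for Timp2 and 0.812 (95% interval 0.747 to 0.883) for Timp3. Mmp3 was lower after CpG ODN at 0.403 (95% interval 0.30 to 0.54). That difference fell below 2-fold without the Acta2-led sub-cluster (0.733), which made up 22 of 238 and 14 of 54 cells, and without the cell richest in Mmp3 of each library (0.530). Adamts5 was lower after CpG ODN at 0.454 (95% interval 0.321 to 0.642), and at 0.639 without the richest cells. In the cytokine-led sub-cluster 24 of the 40 LPS Adamts5 UMIs came from 1 cell. Adamts4 was the member past 2-fold in the other direction, with 23 UMIs against 1 and a ratio of 9.86 (95% interval 1.60 to 406). Of its 23 UMIs, 8 lay in the keratin-led sub-cluster, and the alternatives gave 1.19 to 14.0. Adamts1 was higher after CpG ODN at 1.46 (95% interval 1.18 to 1.80), but at 0.735 when classes were set cell by cell from marker genes.

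In epithelial-like cells the members that differed most came from the Odam-led cluster. Of 15 members with at least 20 UMIs, 0 were at least 2-fold higher after CpG ODN, where 1.84% of all genes were, and 3 were at least 2-fold lower, where 3.17% of all genes were. The 3 were Mmp12, Mmp10 and Timp1. Mmp12 had 1 UMI against 404, a ratio of 0.00132 (95% interval 3.32e-05 to 0.00738). Mmp10 had 0 against 61 UMIs, and with the 3 counts that a count of 0 allows its ratio was at most 0.0262. Timp1 had a ratio of 0.0922 (95% interval 0.0583 to 0.140), and of 0.734 without the Odam-led cluster. The Odam-led cluster was 17 of 3727 and 17 of 976 epithelial-like cells. Without that cluster no member was past 2-fold in either direction.

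The abundant epithelial members differed far less. The ratio was 0.898 (95% interval 0.842 to 0.957) for Mmp2, 0.896 (95% interval 0.836 to 0.959) for Mmp14, 1.10 (95% interval 1.04 to 1.15) for Adamts1 and 0.705 (95% interval 0.612 to 0.813) for Timp3. Each of these intervals left out 1, for differences of at most 1.42-fold, while that of Timp2 held 1 at 0.994 (95% interval 0.832 to 1.19). Of the 15 members, the interval lay above 1 for 1, below 1 for 6 and held 1 for 8. Of all genes in these cells, 15.3% lay above 1 and 20.2% below. The deeper LPS cells gave larger shares of cells with Mmp14, 40.2% and 60.8%, and with Adamts1, 37.2% and 47.0%. At 1500 UMIs per cell the shares were 6.58% and 7.81% for Mmp14 and 9.13% and 8.50% for Adamts1, with 0 UMIs of either in the B cell-like cells.

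**Figure D5:**
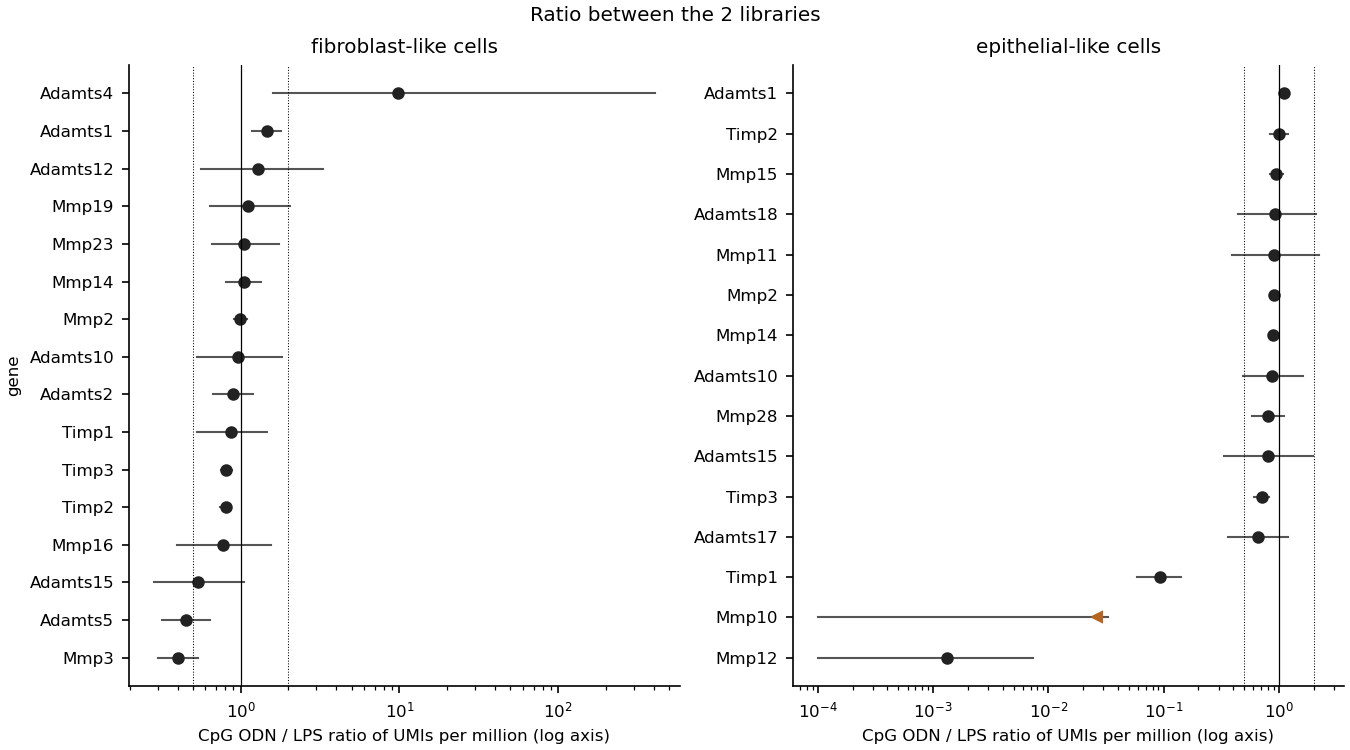
CpG ODN over LPS ratio of CPM (horizontal log axes) of each member with at least 20 UMIs in fibroblast-like and in epithelial-like cells, with exact 95% counting intervals cut at 0.0001; dotted lines mark 2-fold, and the triangle is an upper bound for Mmp10, which had 0 CpG ODN UMIs. In fibroblast-like cells Mmp2 lies at 0.995 and Mmp3 and Adamts5 lie below 0.5, and in epithelial-like cells Timp1, Mmp10 and Mmp12 lie apart from the other 12 members.

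In mural-like cells, a class named from markers of the cells that wrap vessels, Adamts5 differed most. It had 92 UMIs in 34 of 76 cells after CpG ODN and 13 UMIs in 6 of 22 cells after LPS, 247 and 57.4 CPM, with a ratio of 4.30 (95% interval 2.39 to 8.37). The 12 alternatives gave values between 2.64 and 5.65. The mural-like sub-clusters were unevenly filled: sub-clusters with 12 and 7 cells and with 11 and 6 cells had Adamts5 at 82.1 and 0, and at 0 and 0 CPM. The sub-cluster of 11 of 76 and 6 of 22 cells carried 9 epithelial markers, among them Krt5, Krt14 and Epcam, and without it the Adamts5 ratio was 3.63. Adamts5 was higher in sub-clusters of 17 and 4, 15 and 3, and 8 and 1 cells, in a class of 76 and 22 cells. In these it stood at 324 and 53.8, 281 and 149, and 412 and 59.7 CPM. The sub-clusters of 7 and 0 and of 6 and 1 cells are not described here. Of 9 mural members 1 was past 2-fold higher, where 4.67% of all genes were, and 1 past 2-fold lower, where 4.24% were. The lower one was Adamts2, whose interval held 1 at 0.455 (95% interval 0.197 to 1.03). Timp3 was lower after CpG ODN at 0.722 (95% interval 0.617 to 0.844), and at 0.865 without the sub-cluster with epithelial markers.

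In endothelial-like cells 0 of 6 members were past 2-fold higher, where 6.10% of all genes were, and 2 were past 2-fold lower, where 3.70% were. These were Timp4 at 0.241 (95% interval 0.100 to 0.520), whose UMIs lay mostly in the Rgs5-led sub-cluster, and Adamts4 at 0.458 (95% interval 0.251 to 0.816). For Timp4, 1 cell of each library held 5 of the 9 and 19 of the 30 UMIs. Of the 35 LPS UMIs of Adamts4, 24 came from 1 cell, and without the richest cell of each library the ratio was 1.02. Timp3 was higher after CpG ODN at 1.24 (95% interval 1.08 to 1.44).

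Gland or simple epithelial-like cells had 1 of 7 members past 2-fold higher, where 5.28% of all genes were, and 2 past 2-fold lower, where 5.89% were. Adamts1 was higher after CpG ODN at 3.08 (95% interval 2.42 to 3.95), with a range of 1.35 to 5.74 over the alternatives. Mmp14 was higher at 1.92 (95% interval 1.22 to 3.06). Timp2 was lower at 0.414 (95% interval 0.304 to 0.557) and Timp1 at 0.249 (95% interval 0.0742 to 0.665), and Timp3 was less far from 1 at 0.787 (95% interval 0.672 to 0.920). With each library clustered on its own, Timp1 and Timp3 turned to 1.30 and 1.16. Of the 24 LPS Timp1 UMIs, 12 came from 1 cell, beside 5 UMIs after CpG ODN. The class joined a cluster of 90 and 55 cells and a Muc5b-led one of 12 and 14 cells. Its summed epithelial markers stood at 21543.9 and 10005.5 CPM, and its gland or simple epithelial markers at 33538.1 and 49974.8 CPM. The part of this make-up in the ratios was not tested.

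The myeloid-like cells were few, 33 and 13, and 3 of the members could be compared, with 1 past 2-fold higher where 13.5% of all genes were, and 1 past 2-fold lower where 11.5% were. Mmp13 was the higher one, at 10.5 (95% interval 1.71 to 429.8), resting on 1 LPS UMI. Mmp9 was lower after CpG ODN at 0.165 (95% interval 0.0797 to 0.322). The neutrophil-like sub-cluster, which held most Mmp9 UMIs, was 3 of 33 and 8 of 13 cells, and within it the level was 909 CPM (95% interval 416 to 1725) and 699 CPM (95% interval 457 to 1024). All 9 CpG ODN UMIs there came from 1 of the 3 cells, and the LPS UMIs from 5 of 8. Timp2 had a ratio of 1.46 (95% interval 0.983 to 2.22).

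Genes that work with these enzymes were taken from lists set by function, and 5.36% and 3.44% of all genes in fibroblast-like cells were again past 2-fold higher and lower. Of 12 tested genes of activation and clearance in fibroblast-like cells, 0 were past 2-fold higher after CpG ODN and 1 was lower: Plat, the tissue plasminogen activator, at 0.429 (95% interval 0.266 to 0.690). The most abundant of them, Lrp1, the receptor that takes up protease and inhibitor complexes, stood at 518 and 530 CPM, and Bsg, an inducer of Mmp genes, at 363 and 396 CPM. Of 7 cathepsins, lysosomal proteases, none was past 2-fold, with Ctsl at 649 and 749, Ctsb at 475 and 627 and Ctsk, a collagen-degrading cathepsin, at 420.1 and 337 CPM. The ratio of Ctsk was 1.25 (95% interval 1.04 to 1.49). Of 6 ADAM genes 1 was lower, Adam19 at 0.398, and of 4 ADAMTS-like genes 1, Adamtsl3 at 0.455. Of 11 substrates 1 was higher, Vcan, the versican that Adamts1, Adamts4, Adamts5 and Adamts9 cut, at 3.18 (95% interval 2.57 to 3.96), with 632 and 199 CPM. The substrate Thbs1, a matricellular glycoprotein, was lower at 0.225 (95% interval 0.141 to 0.354).

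In epithelial-like cells, where 1.84% and 3.17% of all genes were past 2-fold higher and lower, the activation and clearance list had 0 of 13 genes past 2-fold in either direction, with Bsg at 303 and 315 and Serpinb2, an inhibitor of the plasminogen activator urokinase, at 106 and 107 CPM. Of 6 ADAM genes 2 were lower after CpG ODN, Adam8 at 0.437 and Adam28 at 0.402, while Adam15 stood at 68.5 and 65.8 and Adam10, the main sheddase of the list, at 37.5 and 38.7 CPM. Of 5 ADAMTS-like genes Adamtsl3 was higher at 2.45 and Adamtsl4 lower at 0.473. Of 7 cathepsins 1 was higher, Ctss, a gene of antigen-presenting cells, with 57 UMIs against 1. The epithelial-like cells of the CpG ODN library included a cluster of 29 cells with B cell genes among its leading genes, of which the LPS library had 0, and its part in Ctss was not tested. Of 11 substrates 5 were higher, Col1a1, Col1a2, Col3a1, Col4a1 and Fbn1, with an interval that held 1 for Fbn1, and 1 was lower, Vwf. The median log2 ratio of the substrates there was 0.85, against -0.02 for all genes, on few UMIs (72 and 11 for Col1a1). The ratio of epithelial Mmp2 was 0.898.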

How the data were processed

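Single-cell RNA-seq of palatal gingiva was analysed from 1 library per ligand, each a pool of 4 mice. The tissue had been digested with collagenase II and then trypsin at 37 °C. The authors deposited raw UMI counts per gene and barcode as 10x matrices made with Cell Ranger 4.0.0, per the file headers, and the submitters' processing notes also name Seurat. The genome build is not given in the sources used here. Gene positions came from GENCODE M21 (GRCm38) by gene ID, which matched 32158 of 32285 IDs and 45 of 45 members.

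The members and lists were chosen with earlier results of these data known. The study's minimum of 800 detected genes per cell was used, which left out 1331 barcodes after CpG ODN and 739 after LPS. Counts were scaled to 10000 UMIs per cell and logged, 2000 variable genes were chosen without the 45 members and 48 related genes, and Leiden clusters (resolution 1, 30 principal components, 15 neighbours) were made in scanpy 1.11.5 with leidenalg 0.10.2. A cluster was named where at least 4 markers of a class were in at least 20% of its cells and at least 2-fold above other cells. This scoring rule, unlike the marker lists, was set after the data were seen. Scrublet marked 17 cells (0.348%) and 3 cells (0.235%), too few for a working caller, so no cell was removed as a doublet. 239 and 4 cells stayed unnamed.

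UMIs were summed per class and library. Poisson intervals of CPM, binomial intervals of ratios and Clopper-Pearson intervals of shares are exact, at 95%, from scipy 1.17.1. Cells are not replicates, so no test was made between the ligands, and with 1 library each no spread between mice could be had. Ratios were taken for genes with at least 20 UMIs in a class over both libraries, with 2-fold as the limit for the counts and 3 counts in place of 0. Shares of cells with a UMI were also taken with each cell thinned to 1500 UMIs. The text names, per class, up to 6 members by level, up to 5 with the highest and 5 with the lowest ratio whose interval leaves out 1, and all Timp genes, and up to 3 genes of each list by UMIs. Others are named where they describe a group or a count, chosen after their values were seen, as were the genes and sub-clusters behind a count. The counting step was tested on simulated data. The alternatives tried were other minimum gene and UMI numbers, clustering resolutions, clustering of each library on its own or with the members kept in, classes set by marker genes in each cell, means over cells, removal of marked doublets and removal of the richest cell, and those added after the data were seen.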

Additional observations from a re-analysis of the deposited data

Results flagged for a closer look

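The ratios of Adamts4 and Adamts5 lay on opposite sides of 1 in different cell types. Adamts4 had a CpG ODN to LPS ratio of 9.86 in fibroblast-like cells, from 23 UMIs against 1, and of 0.458 in endothelial-like cells, where 24 of the 35 LPS UMIs were in 1 cell. Alternatives brought the first to 1.19 and the second to 1.02, so the opposite directions of Adamts4 did not hold under all of them. Adamts5 had a ratio of 4.30 in mural-like cells and of 0.454 in fibroblast-like cells, with ranges of 2.64 to 5.65 and 0.442 to 0.639 over the alternatives. With 1 library per ligand these differences between cell types were not tested.

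Some member UMIs lay in barcodes under 800 detected genes, 1331 in the CpG ODN and 739 in the LPS library, above the 3 counts that a count of 0 allows. In the CpG ODN library these were 85 UMIs of Timp3, 69 of Timp2, 30 of Mmp2, 25 of Adamts1, 13 of Mmp15, 12 of Mmp9, 12 of Adamts10, 10 of Adamts6, 7 of Mmp14 and 4 of Adamts2. In the LPS library they were 11 of Timp3, 9 of Timp2, 7 of Adamts1, 5 of Mmp14 and 4 of Mmp2. The 12 Mmp9 UMIs came from 4 barcodes, in a set that also held 497 UMIs of S100a8, a neutrophil gene, in 4 barcodes. The 239 unnamed cells of the CpG ODN library held 15 UMIs of Adamts10, 7 of Mmp14, 7 of Adamts1 and 4 of Mmp2.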

How the results depend on the processing

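No paired analysis was possible because there was only 1 library for each ligand. Of the counts of members, 64 recomputed values stayed within 1.5 times the value reported and 18 did not. Fibroblast-like cells led 12 members, and 25 when classes were set by marker genes in each cell. That setting has only fibroblast-like, epithelial-like, myeloid-like, B cell-like and T or NK cell-like classes. No member could therefore be led by mural-like, endothelial-like or Schwann-like cells in it, and the 2 numbers are not alike. Epithelial-like cells led 1, and 0 with a minimum of 1200 genes or with each library clustered on its own, 2 at resolution 0.5 or without the richest cell, and 3 with classes under 5 UMIs of a gene left out. In fibroblast-like cells the 1 member past 2-fold higher became 0 with marker-gene classes, without the richest cell, with at least 50 UMIs or without the keratin-led sub-cluster. The 2 past 2-fold lower became 1 with means over cells or without the Acta2-led sub-cluster and 0 without the richest cell. In epithelial-like cells 2 were past 2-fold higher with at least 10 UMIs, against 0. The 3 past 2-fold lower became 0 with 1200 genes, with each library on its own or without the Odam-led cluster, and 1 without the richest cell. Of the single ratios and shares, 639 values moved by less than their interval, 52 by more, and 4 turned: Adamts1 in fibroblast-like cells at 0.735 with marker-gene classes, Adamts4 in endothelial-like cells at 1.02 without the richest cell, and Timp3 and Timp1 in gland or simple epithelial-like cells at 1.16 and 1.30 with each library on its own. The cause was not tested. Removals of sub-clusters or of the Odam-led cluster and the limit of 5 UMIs were chosen after seeing the data. Depth limits the small classes: 6 members reached 20 UMIs in endothelial-like and 3 in myeloid-like cells, and the still smaller Schwann-like class, with 63326 and 37963 UMIs in all, was not compared.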
